A study of Zea mays with 10 samples.

Results

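HSP26 (Zm00001d028408) and HSP9 (Zm00001d028557) are the small heat shock genes of maize endosperm described here, 2 of the 45953 genes in the count tables. HSP26 was found by the identifier that accompanies its name in the study's gene lists, and HSP9 by its row in both tables. Levels of both were read in all 10 bulk RNA-seq libraries of the inbred line B73. The replicated set held 3 libraries of endosperm at 7 days after pollination (DAP) and 3 at 6 DAP, each made from pooled endosperms. The protoplast set held 1 library each of protoplasts at 7 DAP, undigested endosperm at 7 DAP, protoplasts at 6 DAP and undigested endosperm at 6 DAP. All plants were B73, with no transgene or mutant allele named, and the single treatment was removal of the cell wall with cellulase, macerozyme and pectolyase in the dark at room temperature, which turns tissue into protoplasts. No stage had a second pair of digested and undigested libraries. Intervals on protoplast values therefore cover counting error only and not variation between preparations.

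Small heat shock proteins are ATP-independent chaperones that assemble into oligomers and hold unfolding proteins in a soluble state until HSP70 and HSP101 refold them. In plants most of their genes are nearly silent in unstressed tissue and are switched on by heat shock factors under heat, and some of them also by oxidative or osmotic stress. Several are also known to be switched on by the developmental programme of maturing seeds, without any applied stress. The comparison between stages asks whether the members change as the endosperm differentiates, and the comparison between protoplasts and undigested tissue asks how far the preparation of cells alters the transcripts measured.

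The gene-specific ends of the primers that the study designed for an HSP26 in situ hybridization probe are shown because the study lists them beside this identifier. They were not matched to a genome or transcript here. The reverse primer is given without the promoter tail that it shares with the other probe primers, and nothing is set in capitals.
HSP26 forward primer: cgacagcgctcgacatctc
HSP26 reverse primer: cgatgaccttgcgctccac

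Libraries held between 15911047 and 30203337 counts on genes. Every library had counts for markers of the aleurone (AL9, VPP7, SBT1) and basal endosperm transfer layer (BETL9, MRP1, TCRR1). The same held for the starchy endosperm (ZP27, TAR1, SH2, DE18, FL3) and the embryo surrounding region (ESR1, ESR2, ESR3, ESR6). It held as well for the endosperm adjacent to scutellum (MS8, SWEET15A). Such counts show that each marker was detected, not how much of its cell type a library held. Seed oil body and globulin genes, which mark the embryo and are also known from aleurone (OLE1, OLE3, GLB1, OBAP1A), had counts in every library as well.

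HSP26 was a rare transcript in undigested endosperm and stood far higher in protoplasts. Its level in CPM (counts per 1000000 counts on genes of the same library) was 43.1 in protoplasts and 2.52 in undigested endosperm at 7 DAP. At 6 DAP it was 24.0 CPM in protoplasts and 1.17 CPM in undigested endosperm. These levels came from 1301, 56, 636 and 27 counts, so the undigested levels were the less precise ones, with 95% exact Poisson intervals of 1.90 to 3.27 CPM at 7 DAP and 0.769 to 1.70 CPM at 6 DAP. Such intervals cover counting error only, since each rests on the count of 1 library. PCR copies were not removed by molecular identifiers, so the intervals may be too narrow. Both protoplast libraries lay far above both undigested libraries, an order without overlap that 30.7% of tested genes shared.

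HSP26 in protoplasts was 17.1-fold its undigested level at 7 DAP (95% exact interval 13.1 to 22.8) and 20.5-fold at 6 DAP (14.0 to 31.4). In edgeR's quasi-likelihood test over the 4 libraries, with stage as a covariate, HSP26 rose 20.9-fold (log2 fold change 4.38 ± 0.20 SE, adjusted p = 0.000498). A gene was called on digestion where its adjusted p was under 0.05 and its log2 fold change exceeded 1 in size. HSP26 was called, as were 18.4% of the 22799 tested genes in that direction. The fitted change of HSP26 exceeded that of 96.5% of the tested genes. Each stage serves as the replicate of the other in this fit, which leaves 1 residual degree of freedom.

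HSP9 behaved differently across digestion. It had 64.3 CPM in protoplasts and 48.9 CPM in undigested endosperm at 7 DAP. At 6 DAP it had 39.7 CPM in protoplasts and 9.72 CPM in undigested endosperm. Undigested endosperm of 7 DAP therefore stood above protoplasts of 6 DAP, and the groups overlapped when the stages were put together. Protoplasts held 1.32-fold the undigested level of HSP9 at 7 DAP (95% exact interval 1.22 to 1.42) and 4.09-fold at 6 DAP (3.54 to 4.74).

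The same edgeR fit gave HSP9 a 2.56-fold rise on digestion (log2 fold change 1.35 ± 0.39 SE, adjusted p = 0.0462), a value that sits between its unequal pairs. The call was lost with library totals in place of TMM scaling (log2 fold change 1.19, adjusted p = 0.0525, edgeR). That scaling moves the median of all tested genes by -0.17 log2 units on digestion and by 0.11 between stages. The change exceeded that of 82.9% of the tested genes, among which 18.4% were called higher, so HSP9 lay near the edge of the called group.

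**Figure D1:**
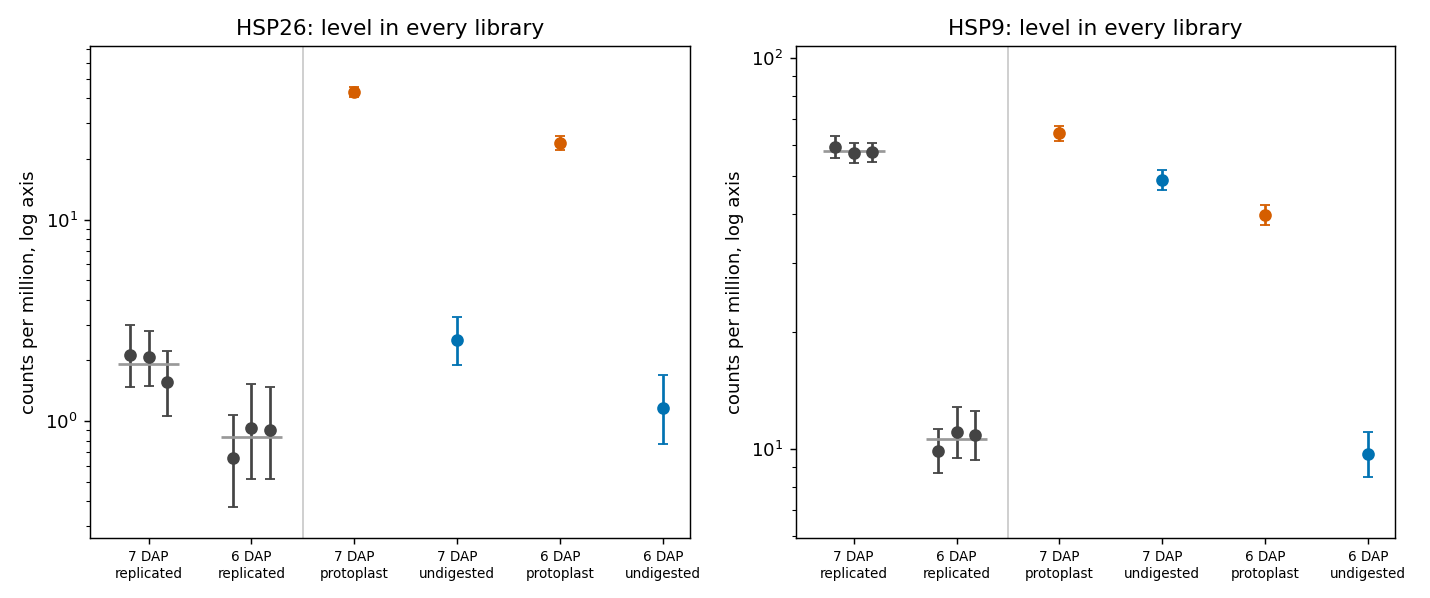
Levels of HSP26 (left) and HSP9 (right) in CPM on log axes, 1 point per library, with 95% exact Poisson intervals. Grey lines are means of 3 replicated libraries. The HSP26 protoplast libraries, at 43.1 and 24.0 CPM, stand apart from all undigested ones. HSP9 at 7 DAP lies between 48.9 and 64.3 CPM with or without digestion, and its undigested 6 DAP libraries lie between 9.72 and 11.1 CPM.

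The digestion change of HSP9 was 1.64 log2 units smaller at 7 DAP than at 6 DAP (difference -1.64, 95% interval -1.87 to -1.40 from counting error). For HSP26 the corresponding difference was -0.26 (-0.94 to 0.41), an interval that holds 0. A contrast of the 2 digestion changes was then fitted in edgeR over all 10 libraries, an analysis chosen after these values had been seen. It gave -1.53 ± 0.14 SE for HSP9 (adjusted p = 6.26e-08) and -0.16 ± 0.36 SE for HSP26 (adjusted p = 0.825). In that fit 9.8% of 24368 genes were called in the direction of HSP9 and 19.2% in either direction. The lone protoplast and undigested libraries are assumed there to vary as little as the replicated ones, an assumption that these data cannot check.

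Between stages, HSP9 was the member with the clear change. In the replicated endosperm libraries HSP9 had 59.3, 57.3 and 57.5 CPM at 7 DAP, against 9.91, 11.1 and 10.9 CPM at 6 DAP. The means were 58.0 ± 1.14 CPM at 7 DAP and 10.6 ± 0.626 CPM at 6 DAP (SD, n = 3 each). The stages were far apart beside the spread within each. HSP9 rose 5.07-fold (log2 fold change 2.34 ± 0.07 SE, adjusted p = 2.58e-17, edgeR quasi-likelihood test over 21486 genes). The study set its limits for stage at an adjusted p of 0.05 and a log2 fold change of 2. HSP9 passed them, as did 2.54% of tested genes in that direction. HSP9 was among the genes that the study itself called from these libraries, so this call is no independent evidence of its direction.

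HSP26 followed the same direction at a level of few counts. The 7 DAP libraries held 34, 42 and 31 counts of HSP26, which were 2.14, 2.08 and 1.56 CPM. The 6 DAP libraries held 16, 15 and 16 counts, which were 0.658, 0.924 and 0.907 CPM. All 3 libraries of 7 DAP lay above all of 6 DAP, as was the case for 41.6% of tested genes. HSP26 averaged 1.93 ± 0.316 CPM at 7 DAP and 0.830 ± 0.149 CPM at 6 DAP (SD, n = 3 each).

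In the edgeR fit HSP26 rose 2.17-fold with stage (log2 fold change 1.12 ± 0.29 SE, adjusted p = 0.0028). That is past an adjusted p of 0.05, as were 28.2% of tested genes in that direction, and short of the log2 limit of 2. An exact permutation test (two-sided) of the CPM gave p = 0.1 for each member, the smallest value that 3 against 3 libraries allow. The stage change of HSP26 was thus far smaller than its digestion change at either stage.

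The unreplicated libraries gave a second reading of stage. In undigested endosperm of the protoplast set, HSP9 at 7 DAP was 5.03-fold its 6 DAP level (95% exact interval 4.35 to 5.83), and HSP26 was 2.16-fold (1.34 to 3.56). In protoplasts the ratio was 1.62-fold for HSP9 (1.50 to 1.75) and 1.80-fold for HSP26 (1.63 to 1.98). The intervals of HSP26 in the 2 kinds of material overlapped. The stage ratio of HSP9 was lower in protoplasts than in undigested endosperm, with intervals apart. Each of the other small heat shock genes tested between stages had the higher ratio in protoplasts. For HSP18F the ratio was 3.10-fold in protoplasts (2.82 to 3.41) and 1.94-fold in undigested endosperm (1.61 to 2.34). For HSP28 and Zm00001d037633, among others, the intervals of the 2 materials overlapped.

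Undigested endosperm of the 2 sets did not match exactly. HSP26 had 2.52 CPM in the undigested library at 7 DAP, above the replicated range of 1.56 to 2.14 CPM. At 6 DAP it had 1.17 CPM, above the replicated range of 0.658 to 0.924 CPM. HSP9 lay below the replicated range in both undigested libraries, at 0.843 of the replicated mean at 7 DAP and 0.915 at 6 DAP. The gaps were small beside the digestion change of HSP26. For HSP9 at 7 DAP the gap was not small, since its 64.3 CPM in protoplasts stood close to the 57.3 to 59.3 CPM of the replicated endosperm. Of the other small heat shock genes, Zm00001d037633 had 14.8 CPM in the undigested library at 7 DAP, against 28.9 to 31.1 CPM in the replicated ones. That was 0.491 of the replicated mean, and 0.489 at 6 DAP. HSP18F stood at 0.693 of the replicated mean at 7 DAP and at 1.03 at 6 DAP.

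The balance between the members shifted with digestion more than with stage. In protoplasts there were 1.49 HSP9 counts for every HSP26 count at 7 DAP and 1.66 at 6 DAP. Undigested endosperm of the same set had 19.4 HSP9 counts per HSP26 count at 7 DAP and 8.33 at 6 DAP. The replicated libraries had between 27.5 and 36.8 at 7 DAP and between 12.0 and 15.1 at 6 DAP. Counts were not divided by transcript length, so the change of this ratio between libraries can be read, but not its size.

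Levels of cell type markers moved in the same libraries. Summed over the 4 embryo markers, protoplasts had 211 CPM and undigested endosperm 480.2 CPM at 7 DAP, against 79.2 CPM in protoplasts and 55.6 CPM in undigested endosperm at 6 DAP. In the replicated libraries their sum lay between 566 and 593 CPM at 7 DAP and between 62.2 and 69.3 CPM at 6 DAP. The stage ratio of that sum was 2.66 in protoplasts and 8.64 in undigested endosperm, so that, like the ratio of HSP9, it was lower in protoplasts.

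Starchy endosperm markers summed to 1614 CPM in protoplasts and 7637 CPM in undigested endosperm at 7 DAP, and to 1856 CPM in protoplasts and 5223 CPM in undigested endosperm at 6 DAP. Their stage ratio was 0.87 in protoplasts and 1.46 in undigested endosperm, from a sum over members that differed. In undigested endosperm the ratio was 5.74 for ZP27, 4.95 for SH2, 4.25 for DE18, 1.42 for TAR1 and 0.610 for FL3. In protoplasts it was 0.111 for ZP27, 0.509 for SH2, 1.48 for DE18, 1.01 for TAR1 and 0.498 for FL3. Markers of the endosperm adjacent to scutellum had a stage ratio of 1.09 in protoplasts and 2.73 in undigested endosperm, whereas that of the embryo surrounding region markers was 7.78 in protoplasts and 5.44 in undigested endosperm. Aleurone markers had a ratio of 1.34 in protoplasts and 1.77 in undigested endosperm, and transfer layer markers 0.866 in protoplasts and 0.368 in undigested endosperm. The part of these shifts in the values of HSP9 or HSP26 was not tested. In bulk samples fewer cells of a type and less RNA per cell cannot be told apart.

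**Figure D2:**
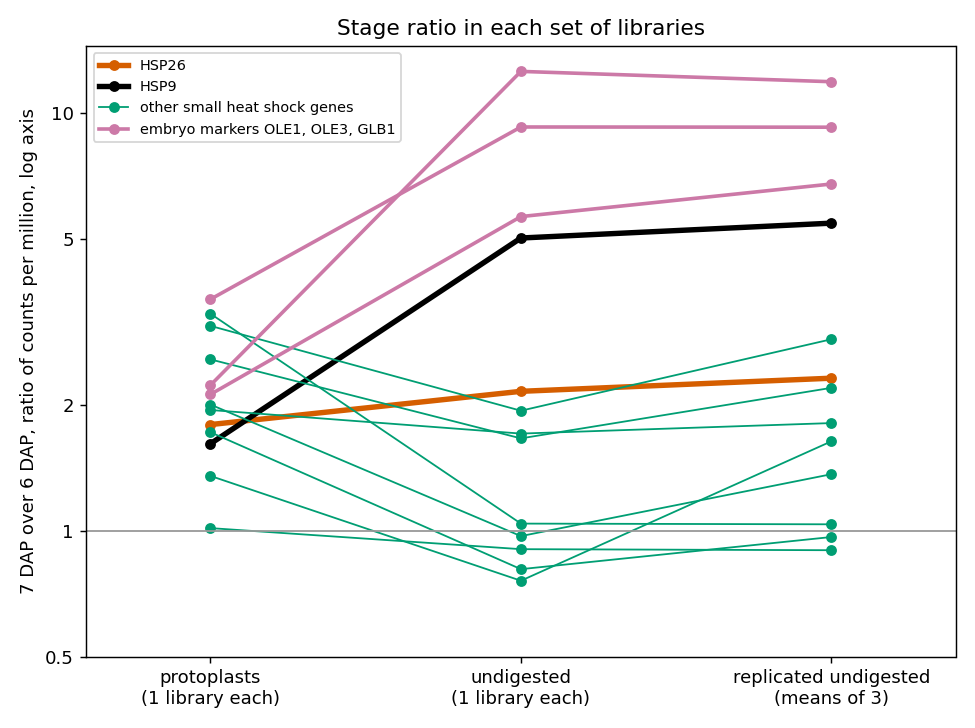
Ratio of the 7 DAP level to the 6 DAP level (CPM, log axis) in protoplasts, in undigested endosperm of the same set and in the replicated libraries, with a line for each of 13 genes. The ratio of HSP9 is 1.62 in protoplasts and 5.03 in undigested endosperm, and the lines of OLE1, OLE3 and GLB1 are likewise lower in protoplasts. Not drawn, OBAP1A and every starchy endosperm marker had lower ratios in protoplasts too. The summed embryo surrounding region markers and the summed transfer layer markers had higher ones. That of HSP26 is 1.80 in protoplasts and 2.16 in undigested endosperm. Each other small heat shock gene drawn goes the other way from both members, with the higher ratio in protoplasts. HSP18F, for one, is at 3.10 in protoplasts and 1.94 in undigested endosperm.

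Set beside the other small heat shock genes, HSP26 was an intermediate responder to digestion and HSP9 a weak one by the change fitted over both stages. The 12 other genes were those annotated to protein complex oligomerization in the study's heat-responsive gene groups, with 1 class III gene, Zm00001d037633, added by its annotation. Part of the list came from the study's single cells, which were themselves protoplasts, so its direction on digestion is no independent evidence. Of the 11 that were tested, 10 rose past the call limits in edgeR, 0 fell and 1 did not pass, and DESeq2 gave the same counts. At an unadjusted p under 0.05, 0 fell as well. Calls over all tested genes were 18.4% higher and 7.37% lower. The list's median log2 fold change was 5.09, against -0.03 over all tested genes. Since reads that mapped to several places were not counted, near-identical copies within this multigene family may be undercounted, and overlapping transcripts cannot be told apart where the strand setting is unknown. Zm00001d028555 had 0 counts in every library, with an upper 95% exact Poisson limit of at most 0.232 CPM in any of them. That limit holds for uniquely mapped reads only.

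Among the 13 tested genes of this family, HSP26 took place 7 and HSP9 place 12 by fitted digestion change. In the 6 DAP pair alone the HSP9 ratio of 4.09 was above those of HSP18F (2.78), Zm00001d017813 (3.78) and Zm00001d037633 (0.826). It was below those of the other genes. The ratio of Zm00001d017813 rests on few counts (95% exact interval 1.52 to 11.2). Genes above HSP26 included Zm00001d028561, with 73.2 CPM in protoplasts and 1.26 CPM in undigested endosperm at 7 DAP, and 36.5 CPM in protoplasts and 1.30 CPM in undigested endosperm at 6 DAP. Zm00001d008841 rose 48.6-fold and Zm00001d047841 rose 34.1-fold in the edgeR fit (adjusted p = 0.000568 and 0.000949). Zm00001d028561 and Zm00001d047841 stood under 2 CPM in undigested endosperm of the protoplast set and over 20 CPM in protoplasts at both stages. HSP26 resembled them, except that its undigested level at 7 DAP was 2.52 CPM.

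Genes that were almost absent before digestion had the highest fitted changes, which depend on the prior count and are not given. Zm00001d039933 had 237 counts in protoplasts and 1 in undigested endosperm at 7 DAP, and 75 counts in protoplasts and 0 in undigested endosperm at 6 DAP. It was at least 21.8-fold higher at 6 DAP against a floor of 3 counts in that library, and the 95% exact interval, which also covers the counting error of the protoplast library, has a lower limit of 17.3. Zm00001d039936 had 26 counts in 6 DAP protoplasts and 0 in undigested endosperm, at least 7.56-fold higher against the same floor, with an exact lower limit of 5.72. Zm00001d025508 had 426 counts in protoplasts and 3 in undigested endosperm at 7 DAP, a ratio of 105 with a 95% exact interval of 35.5 to 509.

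Of the genes below HSP26 in that order, Zm00001d047542 rose 8.99-fold, Zm00001d017813 rose 7.85-fold, HSP28 (Zm00001d018298) rose 5.88-fold and HSP18F (Zm00001d039566) rose 3.99-fold (adjusted p = 0.00308, 0.0233, 0.0016 and 0.00407, edgeR). HSP18F had 65.6 CPM in protoplasts and 14.8 CPM in undigested endosperm at 7 DAP, against 21.2 CPM in protoplasts and 7.60 CPM in undigested endosperm at 6 DAP. Its digestion ratio was 4.45 at 7 DAP and 2.78 at 6 DAP, the opposite order from HSP9.

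The class III gene Zm00001d037633 was the 1 tested gene of the family without a rise. It had 13.8 CPM in protoplasts and 14.8 CPM in undigested endosperm at 7 DAP, and 13.6 CPM in protoplasts and 16.4 CPM in undigested endosperm at 6 DAP (log2 fold change -0.02 ± 0.18 SE, adjusted p = 0.927, edgeR).

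**Figure D3:**
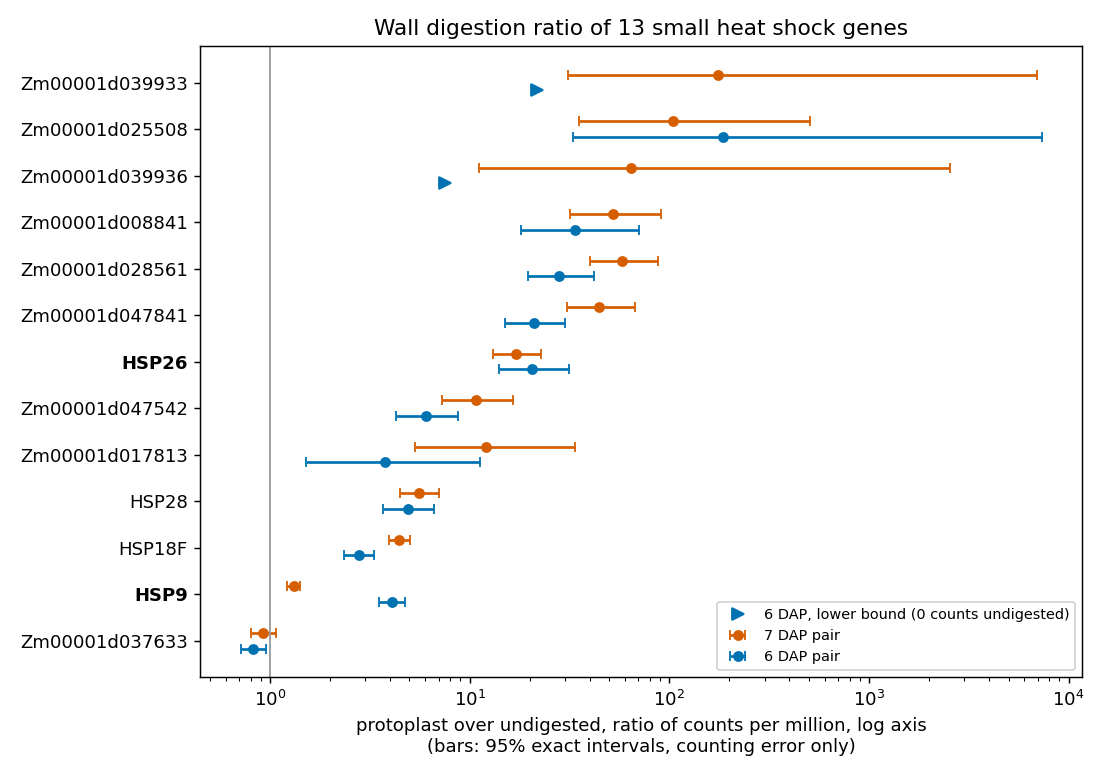
Protoplast over undigested ratio of CPM on a log axis for the 13 tested small heat shock genes, with the 7 DAP pair above the 6 DAP pair in each row. Bars are 95% exact intervals for counting error, and triangles are lower bounds where the undigested library had 0 counts. HSP26 sits at 17.1 and 20.5 in mid-order with overlapping intervals, and HSP9 at 1.32 and 4.09 with separate ones.

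Between stages the order was a different one. Of the 12 other small heat shock genes 8 were tested in the replicated libraries. Past an adjusted p of 0.05, 3 of them rose, 1 fell and 4 did not pass, against 28.2% higher and 28% lower among all tested genes. Their median log2 fold change was 0.48, against 0.02 over all tested genes. By edgeR 0 of them passed the log2 limit of 2, with DESeq2 and at an unadjusted p also 0, against 2.54% higher and 0.451% lower over all tested genes. HSP9 was the one gene of the 10 tested in the family to pass it, and HSP26 took place 3 in the order of change.

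HSP18F stood closest to HSP9 in the stage comparison. It had 20.4, 22.1 and 21.3 CPM at 7 DAP, against 9.34, 7.51 and 5.33 CPM at 6 DAP, and rose 2.61-fold (log2 fold change 1.39 ± 0.12 SE, adjusted p = 6.4e-09, edgeR). Zm00001d008841 rose 2.05-fold on very few counts (adjusted p = 0.0265), a call lost in DESeq2 (adjusted p = 0.109) and on leaving out 6 DAP replicate 1 (0.101), 6 DAP replicate 2 (0.0552) or 7 DAP replicate 2 (0.126). Over all alternatives its adjusted p ranged from 0.0143 to 0.126. In edgeR HSP28 rose 1.65-fold (adjusted p = 0.000657). Zm00001d037633 fell, with a log2 fold change of -0.27 (adjusted p = 0.00127). The digestion-responsive Zm00001d047841 and Zm00001d028561 did not pass, with log2 fold changes of -0.17 and 0.38 (adjusted p = 0.62 and 0.317).

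Chaperones that work with the small heat shock proteins were read against the 18.4% of all tested genes called higher and 7.37% called lower. Several of the heat shock lists were drawn from the study's single cells, which were protoplasts, so their direction on digestion is no independent evidence. HSP101 (Zm00001d038806), the disaggregase that unravels aggregated proteins, had the highest fitted change of its list, 55.6-fold (log2 fold change 5.80 ± 0.33 SE, adjusted p = 0.000686, edgeR). Of 11 tested HSP70 genes, 2 passed the limits higher and 0 lower, namely HSP70-6 (16.8-fold) and HSP1 (5.01-fold), a share close to that among all genes, and the list median was -0.16. Of 11 tested genes for HSP90, HSP101 and the J-domain co-chaperones of the HSP40 group, 5 passed higher and 0 lower, with a median of 0.38. Beside HSP101 these included the HSP40 genes Zm00001d028820 (6.55-fold), Zm00001d039000 (3.83-fold) and CDJ1 (2.79-fold).

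Heat shock factors are the transcription factors that bind the promoters of heat shock genes. Of the 11 listed, 10 passed the limits higher in protoplasts and 0 lower, against 18.4% higher and 7.37% lower among all tested genes, and the list median was 3.23. This list may in part come from the same single cells, so its direction is no independent evidence either. HSFTF6 rose 30.7-fold, HSFTF1 28.0-fold, HSFTF17 19.3-fold and Zm00001d052738 10.8-fold (adjusted p = 0.000832, 0.00285, 0.000449 and 0.000596, edgeR). HSFTF5 was the exception, with a log2 fold change of -0.87 (adjusted p = 0.0125), short of the fold limit. Without the fold limit, 5 of the 46 listed genes fell at an adjusted p under 0.05 and 6 at an unadjusted p under 0.05, in edgeR and DESeq2 alike. With library totals in place of TMM 3 of them passed the fold limit, where 0 did with TMM.

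With stage HSP70 genes were mostly lower at 7 DAP. Among all tested genes 28.2% rose and 28% fell past an adjusted p of 0.05. Past an adjusted p of 0.05, 9 of 11 HSP70 genes fell and 2 rose (list median -0.54), and these counts were the same with library totals. In the HSP90, HSP101 and HSP40 list 4 rose and 4 fell, and among heat shock factors 5 rose and 2 fell, of 11 tested in each list. With library totals 7 and 8 rose in these lists, and the fallen stayed at 4 and 2. Of the 41 tested genes of the 4 lists, 0 passed the log2 limit of 2 in edgeR or DESeq2, also at an unadjusted p, against 2.54% higher and 0.451% lower among all tested genes, whereas 14 rose and 16 fell past an adjusted p of 0.05 alone in edgeR. HSP101 rose 2.60-fold with stage (adjusted p = 1.04e-08) and HSFTF1 2.30-fold (adjusted p = 5.53e-09), close to the 2.17-fold of HSP26.

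**Figure D4:**
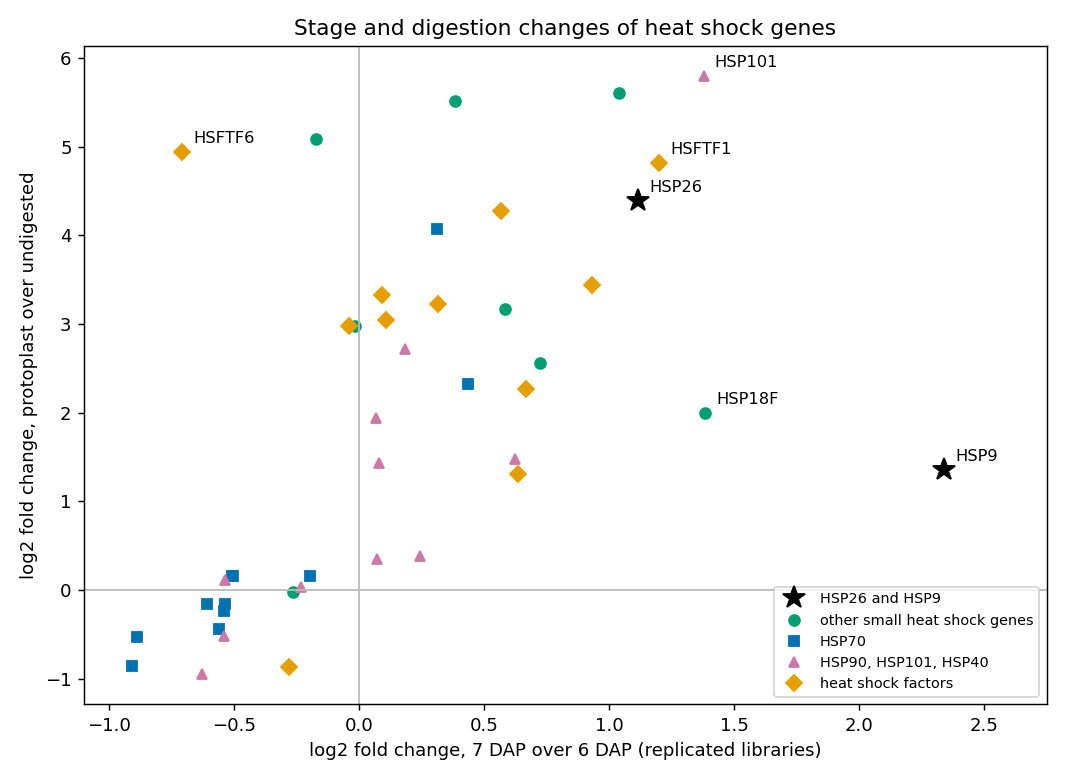
Log2 fold change between protoplasts and undigested endosperm (vertical) against log2 fold change between 7 and 6 DAP (horizontal) for the 43 heat shock genes tested in both comparisons. HSP26 (stars mark both members) lies at 1.12 and 4.38, near HSFTF1 at 1.20 and 4.81. HSP9 lies apart from the rest on the right, at 2.34 and 1.35.

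UBI1 (Zm00001d015327), a polyubiquitin gene often taken as a reference and known to respond to heat, also stood higher in protoplasts. It had 2843 CPM in protoplasts and 836 CPM in undigested endosperm at 7 DAP, and 3011 CPM in protoplasts and 830 CPM in undigested endosperm at 6 DAP. Between replicated stages it had 666 to 671 CPM at 7 DAP and 667 to 676 CPM at 6 DAP. UBI1 in protoplasts was 3.40-fold its undigested level at 7 DAP and 3.63-fold at 6 DAP, so levels expressed per UBI1 would differ from those in CPM.

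The profiles of the members over the 10 libraries differed from each other, with a root mean square difference of 1.32 log2 units between centred log2(CPM + 1) values and a Pearson's r of 0.587. These points share libraries and depth, so the r is a description. Among 16173 genes with a mean of at least 5 CPM after TMM scaling over the 10 libraries, those closest to HSP26 were Zm00001d034655, annotated as a probable protein phosphatase, Zm00001d036927, Zm00001d037182, Zm00001d029688 and Zm00001d052189, at differences between 0.145 and 0.187. Zm00001d034655 had 322 CPM in protoplasts and 23.3 CPM in undigested endosperm at 7 DAP, and 224 CPM in protoplasts and 15.4 CPM in undigested endosperm at 6 DAP. None of these belonged to the heat shock lists.

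Closest to HSP9 were Zm00001d036839, annotated as a hypoxia-responsive family protein, Zm00001d051048, the glutathione transferase gene GST6 (Zm00001d018809), Zm00001d006796 and Zm00001d006493, at differences between 0.223 and 0.261. Zm00001d036839 had 93.6 CPM in protoplasts and 64.8 CPM in undigested endosperm at 7 DAP, and 58.5 CPM in protoplasts and 16.8 CPM in undigested endosperm at 6 DAP. The 10 named neighbours depended on the measure. With a pseudocount of 0.1 in place of 1, the 5 closest genes included 2 of these for each member.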

How the data were processed

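Bulk RNA-seq of B73 endosperm was analysed in 10 libraries. The authors trimmed reads with Trimmomatic 0.39, aligned them with STAR to version 4 of the B73 genome and used featureCounts 2.0.1 to assign uniquely mapped reads to genes. They deposited the resulting raw counts, not normalized. The strand setting is not given in the sources used here. Sample labels and published methods differ on the library kit and on the pooling of stages, which was left unresolved. The published methods take the 3 replicates from kernels of separate ears.

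All genes kept by filterByExpr were fitted with edgeR 4.0.16 (R 4.3.3) after TMM scaling. Its quasi-likelihood test was used, with p-values adjusted over all tested genes by the method of Benjamini and Hochberg. Standard errors were derived from the F statistic. Protoplasts were compared with stage as a covariate. CPM used library totals. Ratios of single libraries have 95% exact (Clopper-Pearson) intervals. DESeq2 1.42.0, other scalings and filters, the replicate block, and leaving out each replicate were alternatives. The fits were checked on simulated counts. For digestion those counts varied less than the real ones, whose biological coefficient of variation was 19.0%. Their planted digestion change of 2 log2 units was larger than the change fitted for HSP9. No replicate pair agreed within sampling noise.

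Named genes were HSP26, HSP9, every other listed small heat shock gene, up to 4 genes per other list, comparison and direction with the largest change past an adjusted p of 0.05 and a log2 fold change of 1 without overlap between groups, and the 5 genes closest to each member. HSFTF5, UBI1 and cell type markers are given as levels or exceptions, and HSFTF5 was chosen after its values were seen. Members and lists were chosen with earlier results of these data known. Gene names came from the study's gene lists, as the RefSeq gene table is of another assembly.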

Additional observations from a re-analysis of the deposited data

Results flagged for a closer look

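The contrast of the digestion change at 7 DAP with that at 6 DAP, fitted in edgeR over all 10 libraries, picked out HSP9 at -1.53 log2 units. Protoplasts held more HSP9 than undigested endosperm of the same set at both stages, so in these single pairs the difference was one of size and not of direction. At 7 DAP that rests on 64.3 CPM in 1 protoplast library against 48.9 CPM in 1 undigested library. The replicated endosperm had 57.3 to 59.3 CPM, so a rise at 7 DAP is not established.

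Of the other small heat shock genes named, HSP18F at 0.78 (adjusted p = 0.0427) and Zm00001d047841 at 1.19 (adjusted p = 0.0389) passed the same contrast in the other direction, with the greater digestion change at 7 DAP. Of the genes named from the other lists, HSP101 (-1.05), HSP1 (-0.40), CDJ1 (-0.68) and HSFTF1 (-1.86) had the smaller digestion change at 7 DAP, as HSP9 did. HSFTF6 (1.03) had the greater one. Listed genes not named above passed the contrast too, in both directions, for example CDJ2 (-0.40) and HSP70-16 (0.38). For HSFTF1 the 7 DAP level was 0.674 of the 6 DAP level in protoplasts and 2.63-fold in undigested endosperm, so the stages moved in opposite directions in the 2 materials. HSP101 did likewise, at 0.89 in protoplasts and 1.98-fold in undigested endosperm. For HSFTF6 the stage ratio was 1.39 in protoplasts and 0.734 in undigested endosperm. The contrast was added after the values were seen, and 19.2% of all tested genes passed it.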

How the results depend on the processing

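The stage change of HSP26 stayed positive under all 13 alternatives tried, between 0.94 and 1.26 log2 units, with adjusted p up to 0.0206 (edgeR or DESeq2). At its value of 1.12 it passes a log2 limit of 1 and misses the limit of 2. Leaving out each replicate gave 0.94 to 1.26 for HSP26 and 2.28 to 2.37 for HSP9, which passed the limit of 2 in each. The replicate block gave 1.10 for HSP26 and 2.34 for HSP9, with both on the same side of their limits. Same-numbered libraries did not deviate together (correlations 0.069, 0.014 and -0.0018). No pairing by number was seen, though these correlations cannot exclude one.

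The digestion change of HSP26 lay between 4.21 and 4.44 under 7 alternatives and passed in each. That of HSP9, at 1.35, misses a log2 limit of 2, and with library totals it was 1.19 with an adjusted p of 0.0525 (edgeR). Its adjusted p over the 7 alternatives ranged from 1.04e-13 to 0.0525. The single pairs gave 2.03 at 6 DAP and 0.40 at 7 DAP for HSP9, outside the counting interval of each other. Without a filter on low counts 1 listed gene, Zm00001d039933, passed the stage limit, and with library totals 3 listed genes were called lower on digestion, where 0 were in each case with the settings reported. Leaving out each replicate kept the listed genes past the stage limit at 0, those higher with stage between 12 and 16 and those lower at 16. The stage rise of Zm00001d008841, called with an adjusted p of 0.0265 (edgeR), was also lost under the replicate block (0.0552) and without a filter on low counts (0.051). By Pearson's r in place of the root mean square, 0 of the 5 genes closest to HSP26 and 1 of those closest to HSP9 were the same.

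HSP26 in undigested endosperm rests on 15 to 56 counts a library, which limits the precision of its fold changes. No protoplast library was replicated, so variation between preparations was not measured.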
